A study of Sus scrofa with 12 samples.

Results

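CKB, the brain-type creatine kinase, and GFPT2, an enzyme of the hexosamine pathway, are 2 of the 516 genes in a deposited table of pig heart messenger RNA after left ventricular pressure overload. Both were chosen because they were higher in pressure overload in these same libraries, so their group differences are descriptions and carry no test of their own. The study placed a cuff around the ascending aorta of pigs and closed it in steps, and studied the animals at 5 weeks. Its series text gives 9 pigs with pressure overload and 6 referent control pigs matched for age and weight, and 6 libraries of each group were analysed here. The labels give no strain, sex or age, name the tissue only as heart, and repeat the cuff procedure on the control samples, so whether controls carried an open cuff is not known. They do not state that each library came from a separate pig, and the spread below is that between libraries.

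Creatine kinases move a phosphate group between ATP and creatine and so buffer the energy supply of cells with a high and changing demand. Adult heart muscle is known for the muscle-type subunit CKM and a mitochondrial form, while CKB is the subunit typical of brain, smooth muscle and the fetal heart and can pair with CKM in a mixed dimer. GFPT2 and its paralog GFPT1 catalyse the first and rate-limiting step of the hexosamine pathway, in which fructose phosphate and glutamine yield glucosamine phosphate. The end product, UDP-GlcNAc, is the sugar donor for O-GlcNAc marks on intracellular proteins, for N-glycans and for hyaluronan.

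The libraries differed in how often they held the highest value of a gene. Overload replicate 4 (library S13) was the highest library for 55 of the 141 genes listed as higher, and control replicate 5 (S11) for 196 of the 375 listed as lower. Values are in CPM, read counts scaled to a common library size, and the libraries held 19.5 to 31.9 M reads as recovered from the steps between values. Of 46 marker genes for 9 cell types of the heart, the table holds only KDR, a receptor of endothelial cells, at 150 ± 35.5 CPM in the overload libraries and 101 ± 27.5 CPM in the control libraries (SD, n = 6 per group). The listed share was 2.17% of the marker genes and 3.39% of all genes the authors tested, so nothing is read from the listing of KDR. The cardiomyocyte markers are not among the 516 genes, so the tissue label could not be checked here. In bulk tissue, fewer cells of a type and less RNA per cell cannot be told apart, and the part of endothelial cells in the results was not tested.

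CKB was higher in all 6 overload libraries than in any control. Of the 141 genes listed as higher, 11 had groups without overlap, or 7.8%, and since CKB was chosen on this contrast nothing is read from its place among them. In controls it was at 13.9, 15.6, 10.1, 15.7, 12.8 and 12.2 CPM in replicates 1 to 6. In pressure overload it was at 16.3, 27.6, 17.7, 63.4, 29.2 and 23.0 CPM. The control values lay close together, whereas the overload values spread widely, with replicate 4 far above the other overload libraries and replicates 1 and 3 just above the highest controls. The overload mean of 29.5 ± 17.4 CPM stood against a control mean of 13.4 ± 2.14 CPM (SD, n = 6 per group), a ratio of 2.21. The coefficient of variation was 16.0% in controls and 58.8% in pressure overload.

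Replicate 4 alone held 35.8% of the summed CKB of the overload libraries. Without it the overload mean was 22.8 ± 5.78 CPM (SD, n = 5), the ratio was 1.70 and the coefficient of variation 25.4%. Leaving out the highest overload library could not make the groups overlap, so nothing is read from their separation without it. The median CKB level, which a single library moves little, was 25.3 CPM over all overload libraries against 13.4 CPM over controls.

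The gap that separated the groups was small. The lowest overload library had 424 CKB reads, or 16.3 CPM with an exact Poisson 95% interval of 14.2 to 18.7, and the highest control had 474 reads, or 15.7 CPM with an interval of 13.8 to 17.8. These neighbours did not differ beyond counting error. At the other end, the interval of overload replicate 4, from 59.1 to 67.9 CPM on 1637 reads, lay clear of that of replicate 5, from 26.6 to 32.0 CPM. Intervals cover counting error only.

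GFPT2 was higher in pressure overload in a more even way. In controls it was at 4.85, 4.33, 4.09, 7.03, 4.56 and 2.54 CPM in replicates 1 to 6. In pressure overload it was at 7.31, 10.4, 11.8, 9.06, 10.3 and 6.82 CPM. The groups overlapped by 1 pair of libraries, control replicate 4 at 7.03 CPM and overload replicate 6 at 6.82 CPM, and the other 5 overload libraries were above all controls. The overload mean of 9.29 ± 1.94 CPM stood against a control mean of 4.57 ± 1.45 CPM (SD, n = 6 per group), a ratio of 2.03. The coefficient of variation was 31.8% in controls and 20.9% in pressure overload.

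The GFPT2 difference did not rest on the library that stood out for CKB. Overload replicate 4 ranked 4 of the 12 libraries for GFPT2 and held 16.3% of the overload sum. Without it the overload mean was 9.33 ± 2.16 CPM (SD, n = 5) and the ratio 2.04. GFPT2 was counted on few reads, 64 to 212 in controls and 166 to 338 in pressure overload. The interval of the overlapping control, 5.75 to 8.50 CPM, covered the values of overload replicates 1 and 6.

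**Figure D1:**
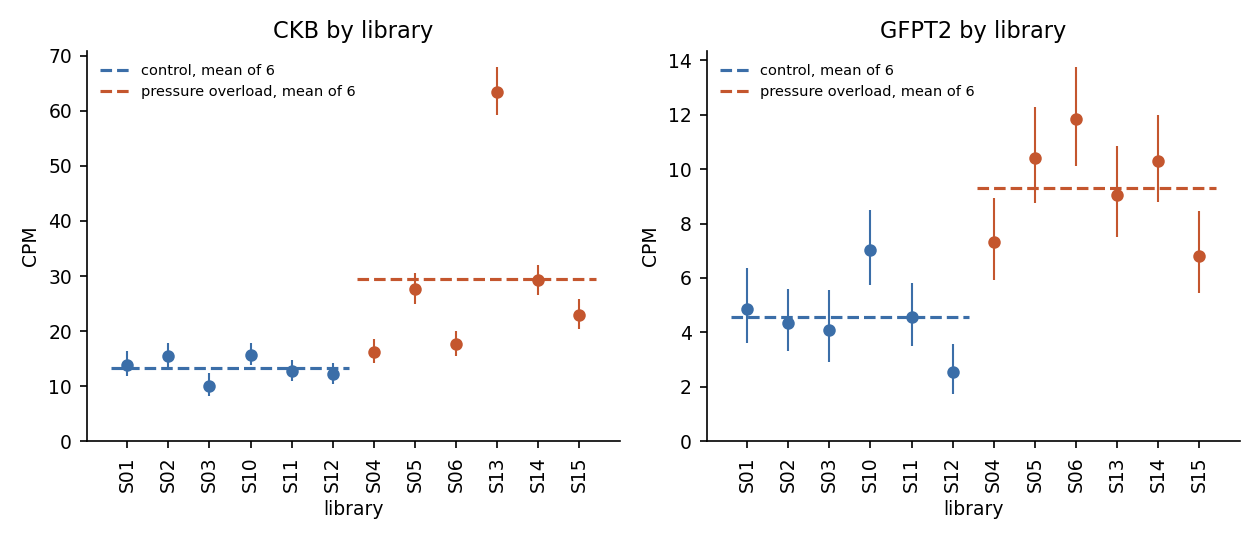
CPM of CKB (left) and GFPT2 (right) in each library, controls in blue and pressure overload in orange, with exact Poisson 95% intervals of the counting error and dashed lines at the mean of 6 libraries. CKB in overload library S13 stood at 63.4 CPM against 29.2 CPM in the next library, while GFPT2 in S13 was at 9.06 CPM, within the range of its group.

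On the log2(CPM + 1) scale, where the difference of a low gene is understated, CKB differed by 0.95 ± 0.26 and GFPT2 by 0.90 ± 0.21 (overload minus control, SE from limma over 512 genes). Each SE borrows spread from these 512 genes, which were listed for a low p in this same contrast. The SD behind it was 0.45 for CKB and 0.36 for GFPT2, against 0.51 and 0.33 between the libraries themselves. The SE of CKB is therefore smaller than its own spread would give. Leaving out overload replicate 4 took CKB to 0.70 ± 0.18 and left GFPT2 at 0.91 ± 0.22. No other library moved CKB as far. GFPT2 ranged from 0.78 without control replicate 6, its lowest library, to 1.02 without control replicate 4, its highest control.

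The libraries carry numbers in 2 runs, S01 to S06 and S10 to S15, each with 3 controls and 3 overload libraries, and what the runs stand for is not given. CKB differed by 0.58 ± 0.24 within S01 to S06 and by 1.31 ± 0.34 within S10 to S15, the run that holds S13. GFPT2 differed by 0.98 ± 0.23 and 0.83 ± 0.35. Both genes were higher in overload within each run, and whether the CKB difference itself differed between runs was not tested. Within S01 to S06 GFPT2 was at 4.09 to 4.85 CPM in controls and 7.31 to 11.8 CPM in overload, and the overlap came from S10 to S15. The share of listed genes without overlap within a run is not given, so nothing is read from this separation. The coefficient of variation of GFPT2 was 8.80% in controls and 23.5% in overload within S01 to S06, and 47.8% and 20.2% within S10 to S15, so which group was more variable depended on the run.

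**Figure D2:**
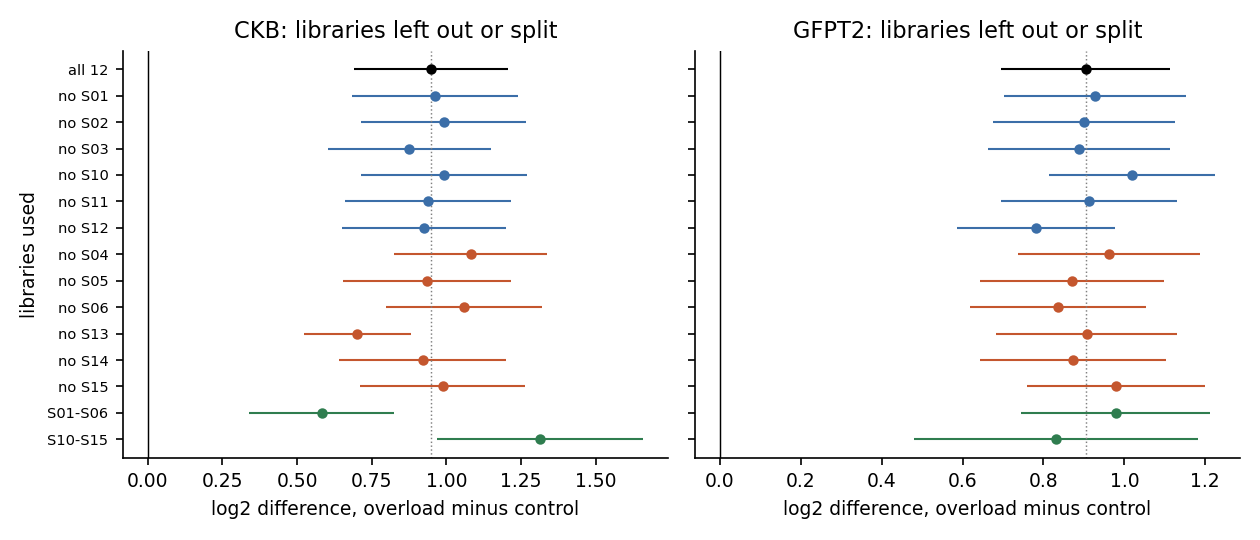
Log2 difference of CKB (left) and GFPT2 (right), overload minus control, with its SE, for all 12 libraries (black), without each control (blue) or overload library (orange) and within each run of library numbers (green). CKB moved from 0.95 to 0.70 without S13, and GFPT2 stayed between 0.78 and 1.02.

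In the authors' deposited table, CKB had a log2 fold change of 1.13 and GFPT2 of 1.003, ranking 9 and 15 from the highest of the 516 genes. The unadjusted p in that table was 0.00651 for CKB and 0.00174 for GFPT2, and the adjusted p was 0.975 and 0.634. By unadjusted p in the authors' deposited table, GFPT2 ranked 3 and CKB ranked 10 among the 141 genes listed as higher. These are the values that chose both genes. Neither passed an adjusted p of 0.05, which 6 of 15235 tested genes did, or 0.0394%. limma on the CPM values, adjusted over the same 15235 genes, called 0 of 512 fitted genes, or 0%, with 456 at an unadjusted p under 0.05. The fitted genes had already been cut at the authors' unadjusted p of 0.05 in this contrast, so the count of 456 was largely set in advance.

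The deposited mean level of CKB did not match the libraries at hand. The authors' deposited table gives CKB a mean log2 CPM of 6.37, or 82.5 CPM, above the highest of the 12 libraries, whose mean was 21.5 CPM. The gap between the deposited mean and the log2 of the mean of the 12 libraries was 1.94 for CKB, the fifth largest of 516 genes, and 0.51 for GFPT2, ranked 51. The median gap was 0.10, with quartiles of -0.01 and 0.26, and 15 genes had a gap over 1. GPNMB, RAB3B, COMP and SCN3B had gaps of 3.67, 2.82, 2.37 and 2.07, and TNC, a matricellular glycoprotein, one of 1.84. The group means in the table equalled the means of the library columns, and the fold of 2.19 for CKB in the authors' deposited table was close to the ratio of 2.21 from the columns. Over which libraries the mean log2 CPM was taken is not given. The numbers of the 12 libraries skip S07 to S09, and what the skip stands for is not known. The cause of the gap in mean level was not tested.

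**Figure D3:**
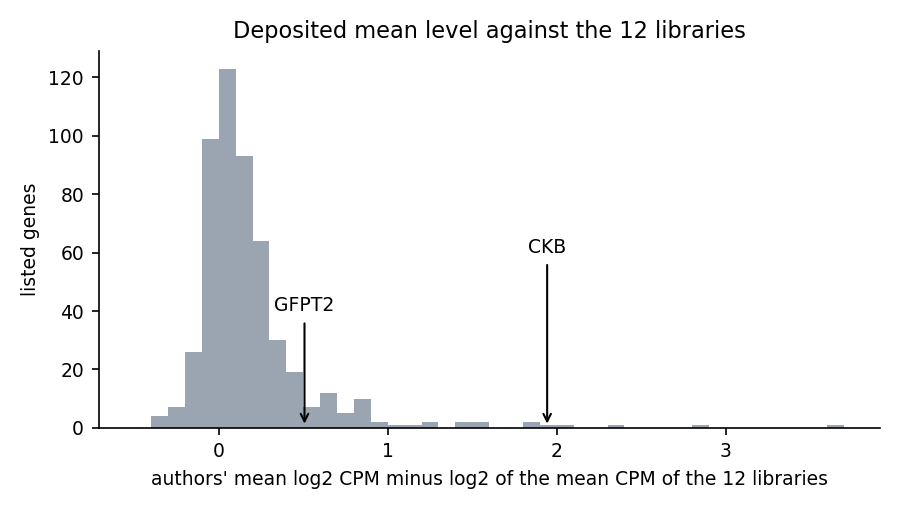
Number of listed genes by the authors' mean log2 CPM minus the log2 of the mean CPM of the 12 libraries. CKB lay at 1.94, far to the right of the median of 0.10, and GFPT2 at 0.51.

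No relation between CKB and GFPT2 passed the test within either group of 6 libraries. A relation over all 12 libraries is fixed by the choice of 2 genes that are higher in overload, so none is given. Within controls, Pearson's r was 0.55 (exact permutation p = 0.221, two-sided, adjusted p = 0.442 over 2 relations) and Spearman's rho 0.77 (exact permutation p = 0.103, adjusted p = 0.206). Without control replicates 3 and 4, the libraries farthest from the median of CKB, r was 0.58 over 4 libraries (exact permutation p = 0.458). Within pressure overload, r was 0.10 (exact permutation p = 0.872, adjusted p = 0.872) and rho 0.09 (exact permutation p = 0.919, adjusted p = 0.919). Without overload replicates 1 and 4, r was -0.15 over 4 libraries (exact permutation p = 0.958). With CPM rescaled by median-of-ratios factors r was 0.47 over all 6 (exact permutation p = 0.276), so its size depends on the scaling.

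The 2 genes ordered the overload libraries differently. CKB was highest in replicate 4, followed by 5, 2 and 6, with replicates 3 and 1 lowest. GFPT2 was highest in replicate 3, followed by 2, 5 and 4, with replicates 1 and 6 lowest. Replicates 2 and 5 were high and replicate 1 was low for both genes, whereas replicates 3 and 4 were each at the top for one gene only. Among controls, replicate 4 was highest for both genes, and replicate 3 was lowest for CKB and replicate 6 for GFPT2.

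**Figure D4:**
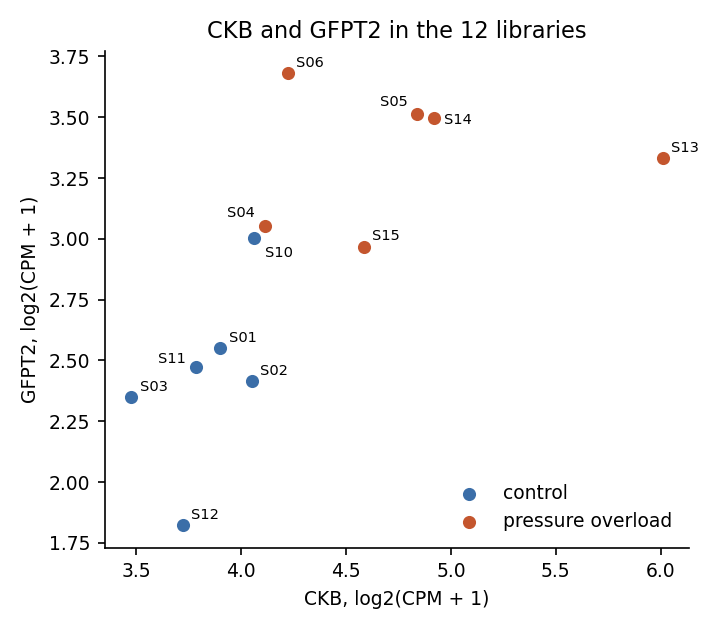
GFPT2 against CKB, each as log2(CPM + 1), in 6 control (blue) and 6 overload libraries (orange) with their library numbers. The groups lie apart by choice of the genes; within pressure overload S13 extends far to the right at a middle GFPT2 level and S06 is highest for GFPT2 at a low CKB level (r = 0.10).

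The genes whose pattern was most like each member were taken as the 5 with the highest Pearson r among 511 genes, over the deviations of log2(CPM + 1) from the group mean in the 12 libraries. For GFPT2 these were MYADM, a membrane protein of myeloid and other cells, with r = 0.81, DBN1, the actin-binding protein drebrin, with 0.78, and CX3CR1, the fractalkine receptor of monocytes and macrophages, with 0.75. RBM26, an RNA-binding protein, followed with 0.70 and C8G, a complement component, with 0.66. Without overload replicate 4 the values were 0.81, 0.78, 0.77, 0.75 and 0.66, and MYADM, DBN1 and CX3CR1 kept the first 3 ranks. CX3CR1 was at 12.1 ± 3.17 CPM in overload libraries against 6.96 ± 2.89 CPM in controls, and DBN1 at 37.1 ± 6.79 against 25.5 ± 9.62 CPM (SD, n = 6 per group). RBM26 and C8G were lower in overload, at 44.3 ± 4.36 against 56.3 ± 3.63 CPM and at 5.27 ± 1.82 against 8.80 ± 3.19 CPM. Each r is a description of these libraries, picked as the highest of many.

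For CKB the likeness rested largely on overload replicate 4. The 5 genes were CLINT1, a clathrin adaptor, with r = 0.82, PLGRKT, a plasminogen receptor, with 0.81, VASH2, a vasohibin, with 0.80, ANKRD2, a muscle ankyrin repeat protein that responds to stretch, with 0.76, and OSBPL3, an oxysterol-binding protein relative, with 0.75. Without replicate 4 they had r of 0.45, 0.51, 0.17, 0.03 and 0.64, and ranked 31, 21, 111, 172 and 9. ANKRD2 was at 80.2 CPM in replicate 4 and at most 8.22 CPM in the other overload libraries, below the highest control at 11.7 CPM. VASH2 was at 53.7 CPM there and at most 19.6 CPM in the other overload libraries. TNC and COMP, matrix glycoproteins, stood out in the same library at 64.1 and 7.44 CPM against at most 17.5 and 0.49 CPM in the other overload libraries. Of the 516 genes, 55 had an overload library that stood apart above the rest by Dixon's ratio on CPM, and for 19 of these it was replicate 4.

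The other enzymes around CKB were mostly outside the table. Of 18 genes of creatine metabolism and phosphate transfer, among them CKM, CKMT2, the creatine transporter SLC6A8 and the AMPK subunits, CKB alone was listed. Of 20 glycolysis genes, 0 were listed. The table was cut at an unadjusted p of 0.05, so absence from it leaves a gene's difference unknown, and values of absent genes were not analysed here. Over 5 lists of energy, hexosamine and glycan genes, 6 of 91 genes were listed, 4 higher and 2 lower, or 4 of 89 without CKB and GFPT2. The authors' test listed 3.39% of all tested genes. Taken from the authors' deposited table, the median log2 fold change was -0.08 over the 4 genes other than CKB and GFPT2, 2 of them higher and 2 lower, and -0.42 over all 516.

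In the hexosamine and O-GlcNAc list, 2 of 16 genes were listed and they differed in opposite directions. OGT, the transferase that places O-GlcNAc on proteins with the UDP-GlcNAc of this pathway, was at 146 CPM in the lowest control, 170 at the median and 207 in the highest. In pressure overload it was at 79.5 CPM in the lowest library, 119 at the median and 197 in the highest. The groups overlapped, with overload replicate 3, the library highest for GFPT2, among the highest of all. The overload mean of 123 ± 42.1 CPM stood against a control mean of 174 ± 24.2 CPM (SD, n = 6 per group), a log2 difference of -0.55 ± 0.18 (SE). It was -0.12 within S01 to S06 and -0.97 within S10 to S15, and -0.43 without overload replicate 4, the library lowest for OGT and highest for CKB. GFPT1 and the later enzymes of the pathway, GNPNAT1, PGM3 and UAP1, were not listed.

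GLUD1, the mitochondrial glutamate dehydrogenase, was the listed gene of 15 in glutamine and nucleotide sugar supply. It ranged from 118 to 163 CPM among controls and from 140 to 185 CPM among overload libraries, with means of 141 ± 14.6 and 168 ± 15.9 CPM (SD, n = 6 per group). Its difference was 0.07 within S01 to S06 and 0.43 within S10 to S15. Overload replicate 4 was its highest library, as for CKB.

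Of 22 genes of hyaluronan and glycan synthesis, 2 were listed. MGAT5, which builds branched N-glycans from UDP-GlcNAc, ranged from 42.8 to 57.4 CPM among controls and from 32.8 to 45.5 CPM among overload libraries, with means of 51.8 ± 5.36 and 39.0 ± 4.88 CPM (SD, n = 6 per group). Its gene overlaps TMEM163, LOC100512195 and LOC100152750 in RefSeq, and no source used here says whether counting used the strand, so its value is uncertain. ST3GAL1, a sialyltransferase of O-glycans, ranged from 16.6 to 27.9 CPM among controls and from 24.6 to 37.5 CPM among overload libraries, with means of 22.6 ± 4.09 and 31.9 ± 4.30 CPM. Overload replicate 4 was its lowest overload library, and the overlap of the groups came from this library. The share of listed genes without overlap when it is left out is not given, so nothing is read from this. The hyaluronan synthases HAS1, HAS2 and HAS3 were not listed. None of the 4 passed adjustment: the authors' deposited table gives an adjusted p of 1 for OGT and GLUD1, 0.817 for MGAT5 and 0.705 for ST3GAL1.

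**Figure D5:**
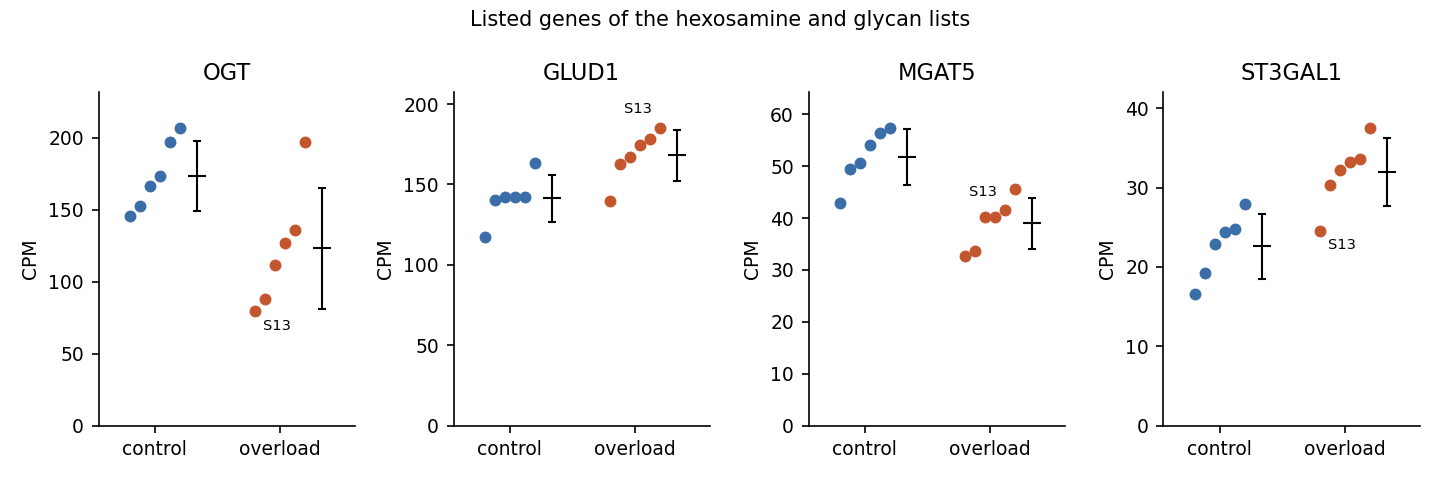
CPM of OGT, GLUD1, MGAT5 and ST3GAL1 in 6 control (blue) and 6 overload libraries (orange), sorted by value, with the mean and SD in black and library S13 marked. OGT and MGAT5 were lower and GLUD1 and ST3GAL1 higher in pressure overload, and the groups overlapped for all 4 genes.

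Inside the groups, OGT, GLUD1, MGAT5 and ST3GAL1 followed the members to different degrees. The r of deviations with GFPT2 was 0.38 for OGT, -0.30 for GLUD1, -0.11 for MGAT5 and -0.04 for ST3GAL1. With CKB it was -0.61 for OGT, 0.49 for GLUD1, 0.16 for MGAT5 and -0.24 for ST3GAL1. Without overload replicate 4 the values with CKB were -0.33, 0.39, -0.02 and 0.43, so that the sign turned for MGAT5 and ST3GAL1. Rescaling the libraries on the listed genes, most of which were lower, moved the median difference of all genes from -0.41 to -0.10 with median-of-ratios factors and to -0.21 with upper-quartile factors. Under median-of-ratios factors CKB was at 1.26 ± 0.30, GFPT2 at 1.18 ± 0.19, GLUD1 at 0.57 ± 0.15 and ST3GAL1 at 0.80 ± 0.13 (SE). OGT was at -0.22 ± 0.14 and MGAT5 at -0.08 ± 0.12. The signs were kept, but MGAT5 was within its SE of no difference and OGT was much closer to none than before. The upward shift is built into factors from mostly lower genes.

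GFPT2 lies on chromosome 2 from 78285208 to 78328288 (Sscrofa11.1, RefSeq annotation), and no other annotated gene overlaps it. CKB is annotated on sequence without a chromosome assignment, so neighbours that could share its reads were not assessed. The recovered read counts of GFPT2 were even in 12 of 12 libraries and those of CKB in 6 of 12, against 82.3% of values over the listed genes.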

How the data were processed

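Polyadenylated RNA of pig heart was sequenced from strand-specific libraries, per the labels' protocols, 6 of pressure overload and 6 of controls, grouped by the group label. Reads were trimmed, aligned and counted with tools that the submitters' processing notes list as Subread 1.5.3 with featureCounts, STAR 2.7.2b, Trim Galore 0.4.5 and SAMtools 1.5, on the build Sscrofa11.1. The gene annotation, the use of strand and the treatment of reads with several alignments are not stated there. The deposited table holds CPM per library and group, a log2 fold change and mean log2 CPM, a likelihood-ratio score of the authors' model, and its p-value before and after adjustment, per the file headers. Whether libraries were rescaled first is not given. It lists 516 genes, each with an unadjusted p under 0.05; the ratio of the p-values implies 15235 tested genes.

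Library sizes were searched for as the number of reads that turns CPM into whole reads (on average 95.8% of values within 0.02 reads). No count model was fitted. Because most values were even, as for reads counted in pairs, Poisson intervals treat each 2 reads as 1 observation (9.77 to 15.9 M per library). CKB counts were even in only 6 of 12 libraries, so its intervals are too wide if its reads were counted singly.

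Differences and SE come from limma 3.58.1 (R 4.3.3), fitted with its trend option to log2(CPM + 1) of genes at 1 CPM or more in at least 6 libraries, with Benjamini-Hochberg adjustment over the 15235 genes, since the table turned out to be partial. On simulated data the fit and the size search gave back the known changes and sizes. There the genes were not cut by p, adjustment was over the simulated table alone, and reads were not counted in pairs. The simulation therefore leaves the fit to a pre-cut table, and the size search on mostly even counts, unchecked. Correlations within a group were tested with an exact two-sided permutation test over all 720 pairings (Python 3.11.15). The rule for named genes took both members, the 5 genes most like each and up to 6 listed genes per list; GPNMB, RAB3B, COMP, SCN3B and TNC were named after their values were seen. The members and lists were chosen with earlier results of these data known. A planned search for promoter motifs was not run, as no sequence was used here.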

Additional observations from a re-analysis of the deposited data

Results flagged for a closer look

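CKB in overload replicate 4 (library S13) stood apart from the other overload libraries. Its distance to the next library, divided by the whole range of the 6 overload libraries, was 0.725 on CPM, above Dixon's 95% critical value for 6 samples. On the log2(CPM + 1) scale the ratio was 0.58, under that value. This was 1 flag in 14 groups of libraries looked at for 7 genes, where chance flags about 1 in 20 if values are normally spread. On CPM, 55 of the 516 genes, or 10.7%, had an overload library that stood apart above the rest, so such a flag was not rare. Library S13 was the highest for 39.0% of the genes listed as higher. The cause was not tested.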

How the results depend on the processing

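The log2 differences of CKB and GFPT2 kept their direction under every alternative run: other pseudocounts (0.5 and 0.1), no filter, both rescalings, both blocks, each library left out, each run of library numbers, and group medians. Both genes were chosen for this difference, so the direction was largely set in advance. The moves were less than the spread of single libraries (0.51 and 0.33), but some exceeded the SE of the differences (0.26 and 0.21). These were CKB at 0.58 and 1.31 within the runs, and CKB at 1.26 and GFPT2 at 1.18 under median-of-ratios rescaling. Without each library in turn CKB ranged from 0.70 to 1.08 and GFPT2 from 0.78 to 1.02. Without S11 and S13 together, an alternative chosen after seeing the data, they were 0.69 and 0.91. The count of limma calls was 0 under each setting run.

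The relation of CKB and GFPT2 passed the test in no setting. In pressure overload r was -0.15 without the 2 libraries farthest from the median of CKB, and ranged from -0.19 to 0.46 with each library left out and was 0.47 after median-of-ratios rescaling. In controls it ranged from 0.30 to 0.75 with each library left out. With replicate number as a replicate block, CKB was at 0.95 ± 0.21 and GFPT2 at 0.90 ± 0.21, and the calls stayed at 0. The replicate numbers stand in the column names of the deposited table and not in the sample labels, no source says that they mark a shared animal, day or batch, and libraries of the same number did not deviate together (r from -0.09 to 0.23 over genes), so they were not taken as pairs. With 6 libraries a group and 64 to 338 reads for GFPT2, a weak relation could not be detected and a strong one could be missed. In controls a Spearman's rho of 0.77 had an exact permutation p of 0.103, so the test does not exclude a relation.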
